A study of Mus musculus with 6 samples.

Results

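Mouse carries 4 metallothionein genes side by side on chromosome 8, and all 4, Mt1, Mt2, Mt3 and Mt4, were among the 1653 genes listed for each library. They were taken by name from the count tables of 6 bulk RNA-seq libraries, 3 of wild-type and 3 of Yaf2KO mouse embryonic stem cells, both of strain C57BL/6. All cells of both genotypes grew on fibroblast feeders stopped with mitomycin-C, in medium with 15% fetal calf serum and leukemia inhibitory factor, so feeder RNA can be part of every library. The Yaf2KO cells were made with Cas9, and the labels do not say how many clones they come from or whether the 3 libraries of a genotype are separate cultures. The p-values therefore measure the spread between these libraries, which may be technical. YAF2 is a subunit of variant Polycomb repressive complexes 1, and the study asked how it regulates expression in these cells.

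Metallothioneins are small proteins, very rich in cysteine, that bind zinc and copper and also cadmium and other toxic metals. Mt1 and Mt2 are expressed in most tissues. They are induced together by the zinc-sensing transcription factor MTF-1, which binds metal response elements in their promoters, and also by glucocorticoids and oxidative stress. Mt3 is known mainly from the brain, where it was first described as a growth inhibitory factor of neurons, and Mt4 from stratified squamous epithelium such as tongue and skin.

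In mm10 coordinates, per the deposited files, the genes lie on the plus strand within 43.1 kb, in the order Mt4 (8:94137204-94139031), Mt3 (8:94152607-94154148), Mt2 (8:94172618-94173567) and Mt1 (8:94179089-94180325). Mt2 and Mt1 are the closest pair, 5521 bases apart, while 18469 bases separate Mt3 from Mt2 and 13575 separate Mt4 from Mt3. In GENCODE vM21 (GRCm38, the same assembly) each is protein-coding, with a 3-exon transcript of 549 bases for Mt1, 511 for Mt2, 536 for Mt3 and 398 for Mt4. The antisense gene Gm45774 overlaps Mt2 on the minus strand. Whether counting used the strand is not stated in the labels or files, so reads of this overlap cannot be assigned to 1 strand.

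Because the comparison between Mt1 and Mt2 below rests on telling their reads apart, their coding sequences are shown, from the GENCODE transcripts, with the bases that differ in capitals.
Mt1: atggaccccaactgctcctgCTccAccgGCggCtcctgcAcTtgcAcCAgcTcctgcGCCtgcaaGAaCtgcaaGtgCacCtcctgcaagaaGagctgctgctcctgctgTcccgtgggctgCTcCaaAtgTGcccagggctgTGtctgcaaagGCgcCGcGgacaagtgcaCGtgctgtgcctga
Mt2: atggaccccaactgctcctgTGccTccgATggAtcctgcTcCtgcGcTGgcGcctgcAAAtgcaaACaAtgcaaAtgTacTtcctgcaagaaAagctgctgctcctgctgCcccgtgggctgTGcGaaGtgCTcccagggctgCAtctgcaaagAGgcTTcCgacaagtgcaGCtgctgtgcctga
Both have 186 coding bases, stop codon included, and they differ at 38 of them (79.6% identical). The longest run that the 3-exon transcripts of Mt1 and Mt2 share is 20 bases. Mt3, with 207 coding bases, is 66.2% identical to Mt1 over the aligned coding sequence, with a longest shared run of 27 bases. Mt4, with 189, is 66.8% identical to Mt1 and 73.2% to Mt2. Neither the read length nor the treatment of reads matching more than 1 gene is stated in the labels or files, so some exchange of reads between these genes cannot be measured.

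The listed genes are a part of the transcriptome, summing to between 56367 and 72975 reads in wild type and between 143682 and 451075 in Yaf2KO, and library totals were not used here. A higher raw count in Yaf2KO is therefore not by itself a higher level. The targeted gene, Yaf2, was not analysed here. In the fit scaled on the listed genes, edgeR called 3 of 376 tested genes, or 0.798%, and all 4 metallothionein genes had enough reads to be tested. Pluripotency markers were found in each library, among them Nanog with 1750 to 20052 reads, Klf5 with 586 to 6555 and Tet2 with 345 to 5272. Of 25 such symbols 8 were listed, all tested and 0 called (edgeR; median log2 fold change -0.13). Together they took 6.30% to 6.73% of the listed reads in wild type and 3.99% to 9.63% in Yaf2KO.

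Mt1 and Mt2 were among the most strongly represented genes of the list, and Mt3 and Mt4 were far below them. Per kilobase of each gene's first-numbered GENCODE transcript, Mt1 and Mt2 ranked between 1 and 3 of 1638 listed genes in each of the 6 libraries, and between 1 and 5 when merged exons of all transcripts were used as the length. Together they made up 98.3% to 99.3% of all metallothionein reads in a library.

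Mt1 had 2672, 1813 and 2538 reads in wild type 1, 2 and 3 and 14631, 14929 and 5070 reads in Yaf2KO 1, 2 and 3. Mt2 had 2305, 1186 and 2259 reads in wild type and 18997, 15375 and 5244 in Yaf2KO. For both genes each Yaf2KO count lay above each wild-type count, and Yaf2KO 3 was the lowest of its group. Mt3 had 34, 33 and 69 reads in wild type and 170, 156 and 104 in Yaf2KO, again without overlap. Mt4 had 19, 9 and 13 reads against 59, 49 and 18, where Yaf2KO 3 fell below wild type 1. Complete separation with Yaf2KO higher was thus seen for 3 of the 4 genes, against 65.2% of all tested genes and 27.4% of all listed genes, so in raw counts the family did as the list did.

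**Figure D1:**
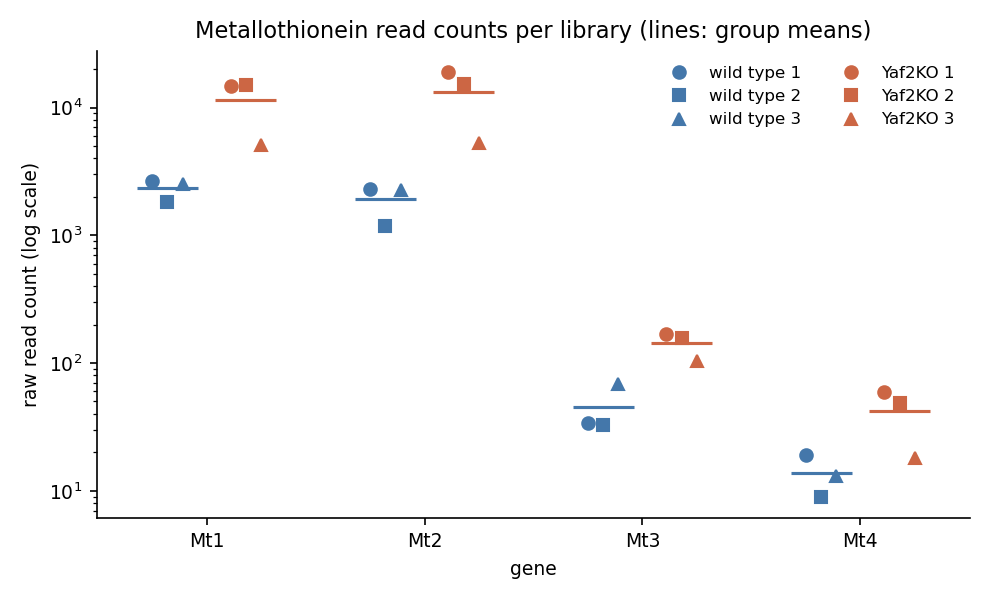
Raw read counts of Mt1, Mt2, Mt3 and Mt4 (x axis) on a log scale (y axis), 1 point per library and a line at the mean of each group of 3. All Yaf2KO points lie above all wild-type points for Mt1, Mt2 and Mt3, while for Mt4 the Yaf2KO 3 count of 18 is below the wild type 1 count of 19.

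The mean Mt1 count was 2341 ± 462 in wild type and 11543 ± 5608 in Yaf2KO (SD, n = 3 each), a ratio of 4.93. The mean Mt2 count was 1917 ± 633 against 13205 ± 7129 (SD, n = 3 each), a ratio of 6.89. For Mt3 the ratio of mean counts was 3.16 (45.3 ± 20.5 against 143 ± 34.8, SD, n = 3 each) and for Mt4 3.07 (13.7 ± 5.03 against 42.0 ± 21.4, SD, n = 3 each). On the log2 scale these ratios of raw counts were 2.30, 2.78, 1.66 and 1.62, beside a median of 2.18 over the 161 listed genes whose mean count reached 100. Mt2 ranked 28 and Mt1 69 among those 161 genes. The depth of the libraries was not used here, so these ratios hold for counts only.

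Relative to the other listed genes, none of the 4 genes passed the test, in the reported fit or in any alternative except equal depth. In the reported fit the pair of high counts lay slightly above the typical listed gene and the pair of low counts slightly below it. The log2 fold change of Mt2 was 0.67 (SE 0.33, adjusted p = 0.95 by edgeR's quasi-likelihood test with Benjamini-Hochberg adjustment; unadjusted p = 0.0688 by edgeR). That of Mt1 was 0.24 (SE 0.33, adjusted p = 0.95 by edgeR). Mt3 was at -0.25 (SE 0.51) and Mt4 at -0.48 (SE 0.54), both with adjusted p = 0.95 by edgeR. The median over all 376 tested genes was -0.03. At an unadjusted p under 0.05 the count of metallothionein genes was 0 of 4 by edgeR, 0 of 4 by the DESeq2 Wald test and 0 of 4 by limma-voom, beside 4.26% of all tested genes by edgeR. Mt2 alone reached that unadjusted level in 5 alternatives of edgeR, none of which called it: without a low-count filter, with a mean CPM of at least 1, with library sums recomputed after filtering, and without Yaf2KO 1 or Yaf2KO 3. Over all genes that level was reached in these fits by 77 of 1638, 77 of 1625, 20 of 376, 47 of 347 and 20 of 345 genes. Mt1 owed its positive sign to 1 library: leaving out Yaf2KO 2 put Mt1 at -0.09 (SE 0.33) and Mt2 at 0.42 (SE 0.35). The sign of Mt3 turned without wild type 3 (0.09, SE 0.58) and without a low-count filter (0.10, SE 0.58). Without that filter the median gene moved by 0.32 and was at 0.20, above Mt3. With a mean CPM of at least 1 the median gene also moved by 0.32.

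Treating the 6 libraries as equally deep moved the median gene by 2.16 log2 units, and in that fit Mt1, Mt2 and Mt3 were called higher (log2 fold changes 2.30, 2.78 and 1.66; adjusted p = 0.0188, 0.0153 and 0.0483 by edgeR) and Mt4 was not (1.61, adjusted p = 0.0620 by edgeR). Of all 415 genes tested at equal depth, 75.7% were called higher.

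**Figure D2:**
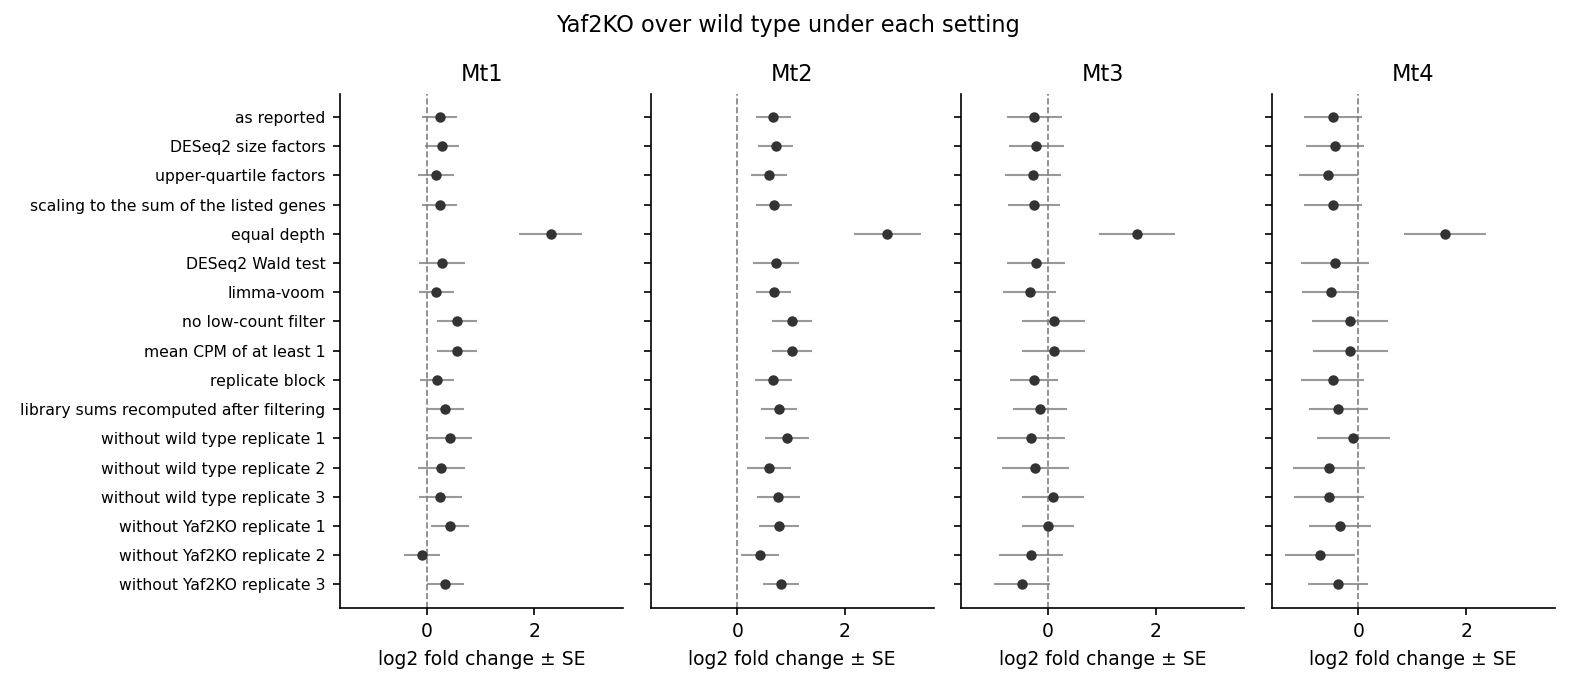
Log2 fold change of Yaf2KO over wild type with its standard error (x axis) for each gene under the reported fit and each alternative (y axis). Apart from equal depth, Mt2 stays above 0 in each setting shown, from 0.42 to 1.02, and Mt4 below 0, while Mt1 and Mt3 lie on both sides of 0.

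As a share of all reads on the listed genes, Mt1 took 4.07%, 3.22% and 3.48% in wild type 1, 2 and 3 and 3.24%, 5.94% and 3.53% in Yaf2KO 1, 2 and 3. The groups overlapped, and the single high value was Yaf2KO 2. Mt2 took 3.51%, 2.10% and 3.10% in wild type and 4.21%, 6.12% and 3.65% in Yaf2KO. For Mt2 the groups did not overlap, although Yaf2KO 3 lay only just above wild type 1. Such separation with Yaf2KO higher was found for 5.85% of the tested genes and 3.93% of all listed genes, and separation in either direction for 6.53% of all listed genes. Among the 161 listed genes whose mean count reached 100, as that of Mt2 did, separation in either direction was found for 14.3%. Mt3 took 0.0518%, 0.0585% and 0.0946% against 0.0377%, 0.0621% and 0.0724%, and Mt4 0.0290%, 0.0160% and 0.0178% against 0.0131%, 0.0195% and 0.0125%. The groups of both overlapped.

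Mt1 and Mt2 together made up 7.59%, 5.32% and 6.57% of the listed reads in wild type (6.49% ± 1.14, SD, n = 3) and 7.46%, 12.1% and 7.18% in Yaf2KO (8.90% ± 2.75, SD, n = 3). The difference of 2.41 percentage points was above the SD of wild type and below that of Yaf2KO. An exact two-sided permutation test gave p = 0.30, where 3 libraries against 3 cannot go below 0.10. Wild type 1 was above Yaf2KO 1 and Yaf2KO 3. Without Yaf2KO 2 the difference was 0.823 percentage points.

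The library with the highest metallothionein share, Yaf2KO 2, also had the highest summed share of markers taken for feeder fibroblasts, with Tagln as the largest part of that sum. Of 42 fibroblast and smooth muscle symbols 7 were listed, 5 tested and 0 called (edgeR; median log2 fold change 0.20). Their summed share was 3.02%, 2.90% and 2.17% of the listed reads in wild type and 1.001%, 4.98% and 2.85% in Yaf2KO. Tagln, which encodes a smooth muscle actin-binding protein, took 0.553% of the listed reads in Yaf2KO 1 and 2.82% in Yaf2KO 2. The smooth muscle actin gene Acta2 took 0.0767% and 0.900%. Wild-type shares were 1.07% to 1.83% for Tagln and 0.119% to 0.346% for Acta2. The collagen gene Col1a1 had 290 reads in Yaf2KO 1 and 1487 in Yaf2KO 2, or 0.0643% and 0.592%, against 0.288% to 0.506% in wild type. The tested marker Myl9 did not follow. It took 0.352% in Yaf2KO 2, below wild type 1 (0.374%) and wild type 3 (0.548%). The marker Cnn1 took 0.109% in Yaf2KO 1 and 0.299% in Yaf2KO 2, against 0.133% to 0.144% in wild type. Yaf2KO 3 lay above wild type for Col1a1 (0.516%) and Cnn1 (0.228%). It lay inside the wild-type range for Tagln (1.69%) and Acta2 (0.157%) and below it for Myl9 (0.254%). Mt1 and Mt2 together took 7.18% in Yaf2KO 3, below wild type 1 (7.59%). The fibroblast genes Prrx1 and Postn had 6 and 12 reads in Yaf2KO 2 and 0 to 3 in each other library. As a share of the listed reads, Postn lay inside the wild-type range there and Prrx1 slightly above it. Postn took 0.0048% in Yaf2KO 2, against 0.0046%, 0.0053% and 0% in wild type 1, 2 and 3. Prrx1 took 0.0024% there, against 0.0014% to 0.0018% in wild type. In Yaf2KO 1, with the lowest summed share of these markers, Mt1 was at 3.24% of the listed reads, inside the wild-type range, and Mt2 at 4.21%, above it. The part of feeder RNA in the metallothionein values was not tested. In bulk RNA fewer cells of a type and less RNA per cell cannot be told apart.

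**Figure D3:**
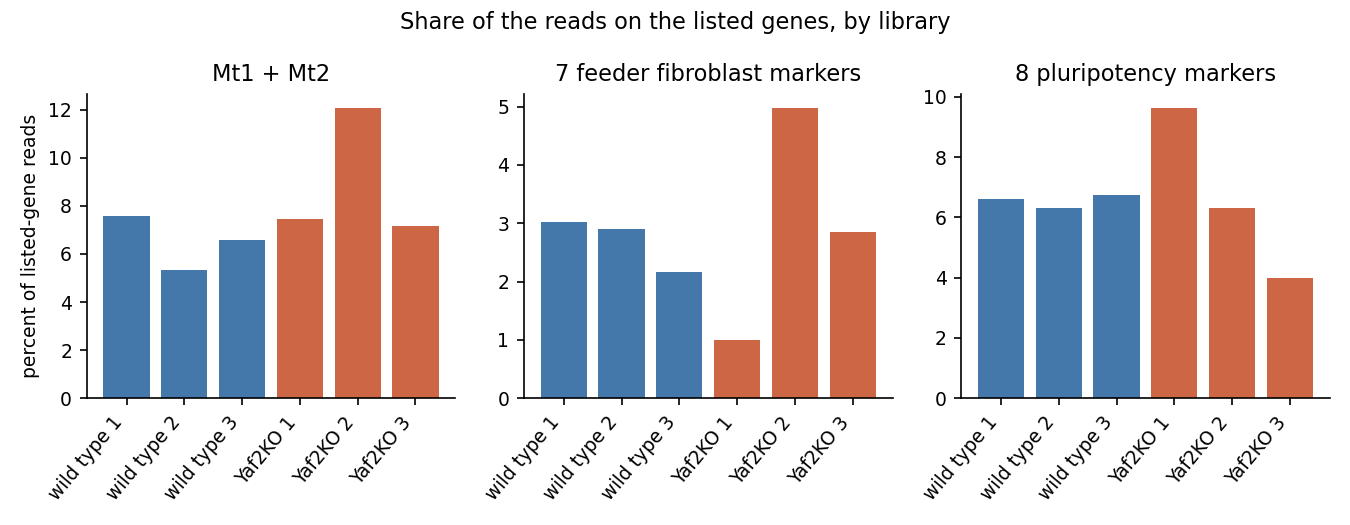
Percent of the reads on the listed genes (y axes, starting at 0, scaled separately), 1 bar per library. The panels show Mt1 and Mt2 together, 7 fibroblast and smooth muscle markers (titled feeder fibroblast markers) and 8 pluripotency markers. Tagln is the largest part of the sum of the 7 markers in each library. Yaf2KO 2 is highest for metallothioneins (12.1%) and for the fibroblast and smooth muscle markers (4.98%), and Yaf2KO 1 is highest for pluripotency markers (9.63%).

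Within a library, the ratio of 2 genes needs no depth. Mt1 exceeded Mt2 in each wild-type library, and the order was turned in each Yaf2KO library. The ratio of Mt2 to Mt1 reads was 0.863, 0.654 and 0.890 in wild type 1, 2 and 3 and 1.30, 1.03 and 1.03 in Yaf2KO 1, 2 and 3. The exact Clopper-Pearson 95% intervals, which cover counting error only, ran from 0.608 to 0.704 in wild type 2, from 0.841 to 0.942 in wild type 3, from 1.01 to 1.05 in Yaf2KO 2 and from 0.995 to 1.08 in Yaf2KO 3. The groups did not overlap, but the gap between wild type 3 and Yaf2KO 2 was smaller than the range within either genotype. The ratios also varied within each genotype by more than counting noise, with a chi-square per degree of freedom of 24.0 in wild type and 121 in Yaf2KO.

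Averaged on the log2 scale, the ratio of Mt2 to Mt1 was -0.33 ± 0.24 in wild type and 0.16 ± 0.19 in Yaf2KO (SD, n = 3 each), a 1.40-fold difference. An exact two-sided permutation test gave p = 0.10, the smallest that 3 libraries against 3 allow, and p = 0.20 after Benjamini-Hochberg adjustment over the 6 pairs among the 4 genes. With single libraries left out the log2 difference ran from 0.35 to 0.57. As background, 3.73% of the 375 other tested genes, Mt2 among them, had a ratio to Mt1 that was higher in each Yaf2KO library than in each wild-type library. For 5.33% it was lower in each Yaf2KO library. Most tested genes had far fewer reads than Mt2, and a background of genes with like counts was not computed. Seen from Mt2, the same separation was less rare. A ratio to Mt2 that was lower in each Yaf2KO library was found for 18.1% of the 375 genes other than Mt2, Mt1 among them. Per kilobase of the 3-exon transcripts the ratio of Mt2 to Mt1 was 0.703 to 0.956 in wild type and 1.11 to 1.40 in Yaf2KO. With merged exons as the length it was above 1 in all 6 libraries, from 1.39 to 1.89 and from 2.18 to 2.75, so which of the genes is the higher one depends on the length used. The difference between the genotypes cannot, since a fixed length multiplies the ratio alike in all libraries.

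**Figure D4:**
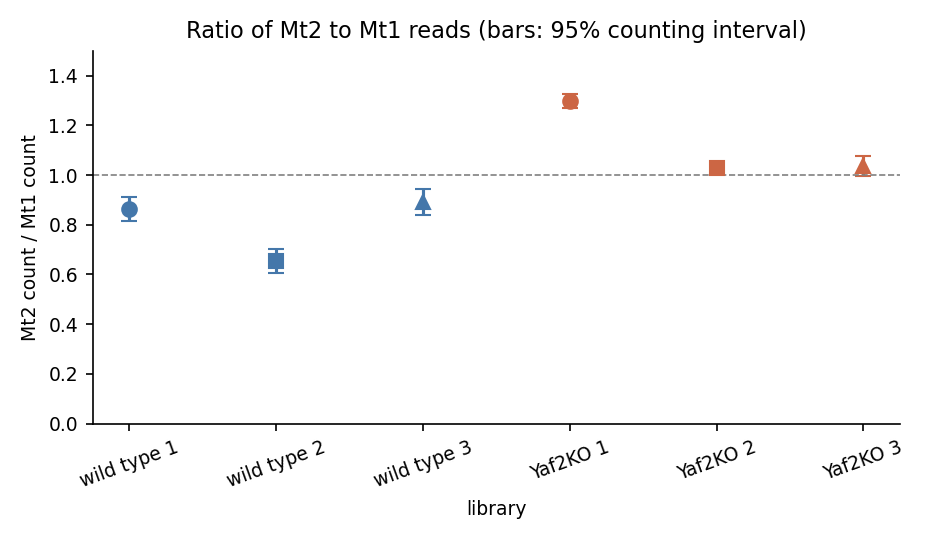
Mt2 reads divided by Mt1 reads (y axis) in each library (x axis), with exact 95% intervals for counting error and a dashed line at 1. The wild-type ratios lie between 0.654 and 0.890 and the Yaf2KO ratios between 1.03 and 1.30.

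Against the high pair, Mt4 lay lower in each Yaf2KO library than in any wild-type library. The ratio of Mt4 to Mt2 reads was 0.0082, 0.0076 and 0.0058 in wild type and 0.0031, 0.0032 and 0.0034 in Yaf2KO, a 0.455-fold difference with no overlap between the genotypes (exact permutation p = 0.10, adjusted p = 0.20 over the 6 pairs). The ratio of Mt4 to Mt1 reads was 0.0071, 0.0050 and 0.0051 against 0.0040, 0.0033 and 0.0036, a 0.638-fold difference, also without overlap (exact permutation p = 0.10, adjusted p = 0.20). As background, 5.33% of the other tested genes had such a lower ratio to Mt1. A lower ratio to Mt2 was found for 18.1%, Mt1 and Mt4 among them, and a higher one for 2.67%. These ratios rest on 9 to 59 Mt4 reads, and the exact interval of the Mt4 to Mt1 ratio in wild type 2 ran from 0.0023 to 0.0094, which includes each Yaf2KO ratio.

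Mt3 did not separate the genotypes against any of the other genes. Its ratio to Mt1 reads was 0.0127, 0.0182 and 0.0272 in wild type and 0.0116, 0.0104 and 0.0205 in Yaf2KO (0.734-fold, exact permutation p = 0.40, adjusted p = 0.48). Its ratio to Mt2 was 0.0148, 0.0278 and 0.0305 against 0.0089, 0.0101 and 0.0198 (0.524-fold, exact permutation p = 0.20, adjusted p = 0.30). In each genotype the third library had the highest Mt3 ratios. Mt4 and Mt3 had a ratio of 0.559, 0.273 and 0.188 in wild type and 0.347, 0.314 and 0.173 in Yaf2KO (0.869-fold, exact permutation p = 0.90, adjusted p = 0.90).

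Per kilobase of transcript, Mt1 was 35.9 to 76.7 times Mt3 in wild type and 47.6 to 93.4 times in Yaf2KO. It was 102 to 146 times Mt4 in wild type and 180 to 221 times in Yaf2KO. Mt3 was 1.33 to 3.94 times Mt4 in wild type and 2.14 to 4.29 times in Yaf2KO, but with merged exons this ratio ran from 0.668 to 1.98 and from 1.08 to 2.16, so their order in wild type depends on the length used. Few of the fixed markers of the tissues for which Mt3 and Mt4 are known were among the listed genes. Of 17 neural and glial symbols 3 were listed, all tested and 0 called, with a median log2 fold change of 0.81: Nes, an intermediate filament gene of neural progenitors (-0.13, SE 0.43), the eye and neural factor Pax6 (0.81, SE 0.55) and the neurofilament gene Nefm (2.15, SE 0.92). Nes had 705, 672 and 537 reads in wild type and 1889, 3046 and 1507 in Yaf2KO, more than Mt3 in each library, and the 3 genes together took 0.778% to 1.29% of the listed reads in wild type and 0.541% to 1.45% in Yaf2KO. The part of neural cells in the Mt3 values was not tested. Of 16 symbols of stratified epithelium 2 were listed. The basal keratin gene Krt14 was not called (log2 fold change 0.57, SE 0.80), with 21, 9 and 15 wild-type reads against 20, 127 and 65 Yaf2KO reads, and the cornified envelope gene Sprr1a 7, 1 and 0 against 5, 32 and 0. As shares of the listed reads, Krt14 (0.0506%) and Sprr1a (0.0127%) were highest in Yaf2KO 2, which also had the highest Mt4 share of the Yaf2KO libraries (0.0195%), while the highest Mt4 share of all was in wild type 1 (0.0290%). The part of epithelial cells in the Mt4 values was not tested.

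After scaling on the listed genes, Mt2 was nearer to Mt1 in its pattern over the 6 libraries than Mt3 or Mt4 were. Each gene was centred on its own mean of log2 scaled counts, and the likeness of a pair was the root mean square difference over the 6 libraries, given as a description. Between Mt1 and Mt2 it was 0.30 log2 units, and each ranked among the 6 genes nearest to the other (Mt2 in place 6 for Mt1, Mt1 in place 5 for Mt2, of 375), where the median gene lay at 0.65 from Mt1 and 0.75 from Mt2. Wild type 2 was the lowest wild-type library and Yaf2KO 2 the highest library for both. They parted in Yaf2KO 1, where Mt1 was 0.34 below its own mean and Mt2 was 0.12 above. Mt4 stood at 0.36 from Mt1 and 0.58 from Mt2, and Mt3 at 0.48 and 0.67.

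The genes nearest to Mt1 by this measure were the interferon-inducible GTPase gene Tgtp1 (0.22), Cnpy1 (0.24), the zinc finger gene Sall3 (0.27) and Ccno (0.29). Tgtp1 rests on 6 to 45 reads a library. Nearest to Mt2 were Rab25, which encodes a small GTPase of epithelial membrane traffic (0.19), the WNT feedback gene Axin2 (0.26), Porcn, the acyltransferase that lipidates WNT ligands (0.29), and Cnpy1 (0.31). Rab25 had 39, 25 and 43 reads in wild type and 464, 261 and 113 in Yaf2KO. Predicted and RIKEN-named genes were left out of this naming.

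**Figure D5:**
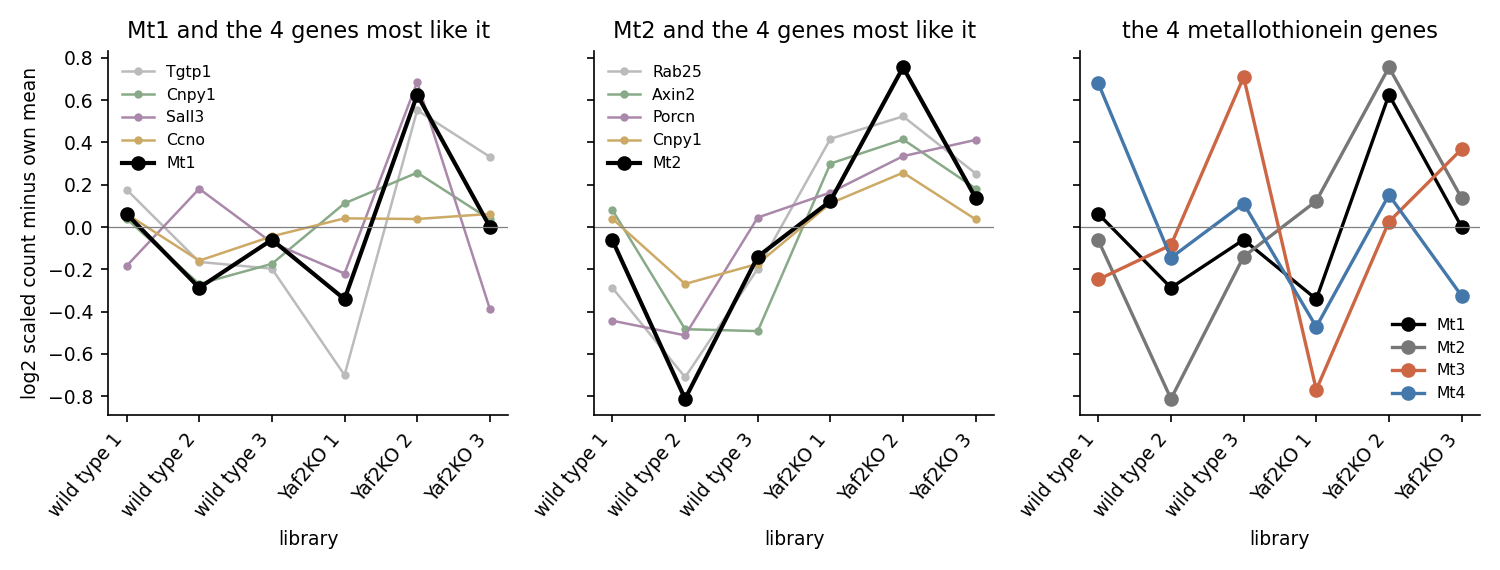
Log2 scaled counts minus each gene's own mean (y axis) in the 6 libraries (x axis; lines join the values of a gene and imply no order), for Mt1 and Mt2 with the 4 genes most like each and for the 4 metallothionein genes together. Mt1 and Mt2 share the low value in wild type 2 and the high value in Yaf2KO 2 and part in Yaf2KO 1, where Mt1 is at -0.34 and Mt2 at 0.12.

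Few other genes of metal handling could be compared. Of 51 fixed symbols, among them zinc transporters of both families, copper carriers and iron storage genes, 2 were listed, 1 was tested and 0 were called by edgeR. Slc30a2 encodes a transporter that moves zinc out of the cytosol into vesicles. It had 27, 31 and 26 reads in wild type and 128, 152 and 55 in Yaf2KO. These raw counts did not overlap, as was so for 65.2% of all tested genes with Yaf2KO higher. Scaled on the listed genes, edgeR put Slc30a2 at -0.04 log2 units (SE 0.50, adjusted p = 0.98). The metalloreductase gene Steap4 had 1, 5 and 4 against 11, 13 and 5 reads. Of 14 glucocorticoid response genes Zbtb16 alone was listed, with 3, 1 and 1 against 7, 7 and 3 reads. Of 25 oxidative stress and 13 heat shock genes 0 were listed, so induction of those programmes was not analysed here. Within 500 kb of the cluster GENCODE annotates 33 other genes, 14 of them protein-coding, of which 1 was listed. It is Slc12a3, the thiazide-sensitive salt cotransporter gene 149 kb downstream of Mt1 (8:94329192-94366213, plus strand), with 1, 0 and 4 reads in wild type and 6, 1 and 4 in Yaf2KO.

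Since metal response elements are known from promoters of this family, the 250 bases before the start of each gene are shown, from RefSeq (GRCm38.p6, plus strand), with matches to the core of the metal response element in capitals. The letters searched were TGCACNC and TGCGCNC on both strands, overlapping matches included. The windows are chr8:94178839-94179088 for Mt1, chr8:94172368-94172617 for Mt2, chr8:94152357-94152606 for Mt3 and chr8:94136954-94137203 for Mt4.
Mt1: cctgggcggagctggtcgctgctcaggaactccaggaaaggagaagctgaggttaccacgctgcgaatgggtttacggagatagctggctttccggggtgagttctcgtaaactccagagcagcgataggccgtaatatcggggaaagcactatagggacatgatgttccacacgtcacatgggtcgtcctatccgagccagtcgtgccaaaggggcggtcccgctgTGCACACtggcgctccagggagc
Mt2: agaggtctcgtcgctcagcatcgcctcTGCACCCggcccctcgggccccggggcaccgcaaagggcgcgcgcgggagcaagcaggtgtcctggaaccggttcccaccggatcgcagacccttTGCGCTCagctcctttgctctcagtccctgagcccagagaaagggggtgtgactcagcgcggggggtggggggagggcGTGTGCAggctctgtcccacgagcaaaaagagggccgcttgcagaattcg
Mt3: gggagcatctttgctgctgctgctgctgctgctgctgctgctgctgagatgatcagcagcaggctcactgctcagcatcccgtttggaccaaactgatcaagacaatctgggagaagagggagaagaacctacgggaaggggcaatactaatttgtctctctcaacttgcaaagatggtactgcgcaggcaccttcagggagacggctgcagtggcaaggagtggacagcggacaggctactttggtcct
Mt4: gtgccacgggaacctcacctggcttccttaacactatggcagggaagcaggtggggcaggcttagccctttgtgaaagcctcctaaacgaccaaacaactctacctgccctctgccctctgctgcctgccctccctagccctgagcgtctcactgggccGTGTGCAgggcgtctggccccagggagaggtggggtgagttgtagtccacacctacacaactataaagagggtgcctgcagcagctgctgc
Mt2 held 3 matches, Mt1 and Mt4 1 each and Mt3 0. Of 32851 such windows 21.4% held at least 1 match and 1.26% at least 3. The match of Mt1 began 23 bases before the start, that of Mt4 91 bases before it and those of Mt2 223, 128 and 50 bases before it. With the first 50 bases after the start included there were 3 matches for Mt1, 4 for Mt2, 1 for Mt3 and 1 for Mt4, where 25.7% of windows of that length held at least 1, 1.97% at least 3 and 0.52% at least 4. The annotated start matters here: GENCODE places further transcript starts of Mt1 122 and 152 bases after the RefSeq start, and its 3-exon transcript of Mt2 starts 46 bases after it, so the windows do not reach up to those starts. A match of letters describes the sequence and does not show binding.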

How the data were processed

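Per the labels' protocols, poly-A RNA, isolated after TRIzol extraction, went into NEBNext Ultra libraries. The authors deposited raw read counts per gene, 1 table per library, with coordinates and annotation, per the file headers. The submitters' processing notes name, without roles, the genome mm10 and the tools HTSeq 0.6.0, TopHat2 2.0.12 and Cufflinks 2.2.1. Filters and library totals are not stated. The 4 genes were found by name in all 6 tables, which list the same 1653 genes. Titles gave the group and number of each library. Each library was counted as 1 replicate. Every pair differed by more than sampling noise, which does not show that the libraries are separate cultures. The chi-square divided by its degrees of freedom was lowest, 5.01, between wild type 1 and wild type 2, and 18.2 or more for all other pairs.

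The whole table was fitted with edgeR 4.0.16 (R 4.3.3; robust quasi-likelihood, TMM, filterByExpr by genotype, Benjamini-Hochberg at 0.05). On a partial list TMM makes the typical listed gene the zero point. Fold changes and scaled counts are relative to that gene, and standard errors come from the fitted model. Counts per kilobase used the GENCODE transcript numbered first for each gene, available for 1638 genes, or merged exons. Single ratios and shares were tested by exact permutation over libraries (scipy 1.17.1). The named genes were the 4 members, the 4 genes nearest to Mt1 and to Mt2 with a regular symbol, listed genes within 500 kb, and of each list any called member, or else the 3 most abundant by mean count (for metal handling all). Prrx1, Postn, Myl9 and Cnn1 were named after their values were seen. Alternatives were other scalings, DESeq2 1.42.0, limma-voom (limma 3.58.1), other filters, the replicate number as a block, and each library left out. Counts per kilobase of merged exons and library sums recomputed after filtering were added after the data were seen. The members and lists were chosen with earlier results of these data known.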

Additional observations from a re-analysis of the deposited data

How the results depend on the processing

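The count of 3 called genes came to 314 at equal depth, 15 without a low-count filter, 15 with a mean CPM of at least 1, 10 by the DESeq2 Wald test, 0 by limma-voom (14 genes at an unadjusted p under 0.05), 0 at an adjusted p under 0.01 and 0 to 11 with single libraries left out, the highest without Yaf2KO 1. It was 2 with upper-quartile factors and 3 with DESeq2 size factors, with the listed sum as the scale and with library sums recomputed after filtering. None of the 4 genes was called in any of these settings other than equal depth. At equal depth Mt1 came to 2.30 and Mt2 to 2.78, Mt3 to 1.66 and Mt4 to 1.61, the first 3 of them called. With single libraries left out Mt1 ran from -0.09 (-0.0853, without Yaf2KO 2) to 0.43, Mt2 from 0.42 to 0.92, Mt3 from -0.48 to 0.09 (0.0943, without wild type 3) and Mt4 from -0.72 to -0.09. Mt3 was at 0.10 without a low-count filter and at 0.10 with a mean CPM of at least 1. By construction equal depth keeps the 2.16 log2 shift of the median gene. Without a filter more genes are tested and the median gene moves by 0.32. For the other changes the cause was not tested. The log2 difference in the ratio of Mt2 to Mt1 was 0.49 with a pseudocount of 1, and a fixed gene length cannot change it by construction. The difference in the share of Mt1 and Mt2 was 3.68 percentage points without the 10 highest other genes in the denominator, 2.38 with the TMM effective total, 2.47 over protein-coding genes, and 0.823 to 3.27 with single libraries left out.

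A paired fit, with the replicate block, called 0 genes (18 at an unadjusted p under 0.05), with Mt1 at 0.19, Mt2 at 0.67, Mt3 at -0.26 and Mt4 at -0.48. Paired by number, sign-flip permutation gave p = 0.25 for the ratio of Mt2 to Mt1, the smallest that 3 pairs allow, with the log2 difference of 0.49 by construction as without pairing, and p = 0.50 for the share (2.41 percentage points). The numbers are only shared: the correlation over genes of deviations from the group means was 0.04, 0.18 and 0.17 for numbers 1, 2 and 3, while wild type 1 had its highest, 0.25, with Yaf2KO 2.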
